A study of Mus musculus with 47 samples.

Results

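The genes described here are 7 brakes and modulators of growth factor signalling, chosen by name: the dual-specificity phosphatases Dusp1 and Dusp7, the receptor inhibitor Errfi1, the Sprouty genes Spry1 and Spry2, the Sprouty-related Spred1, and the kinase Sgk1. All 7 were found by Ensembl identifier among the 13500 genes of the expression table, and all 7 passed the filter on low values. Their RNA was measured in the tibialis anterior, a shin muscle taken whole, of female C57BL/6 mice fed ad libitum, at ZT0 (lights on) and ZT12 (lights off). Wild-type (WT) mice had sham surgery (ages 9 to 12 weeks), adrenalectomy (ADX, removal of both adrenal glands, 12 to 17 weeks), ADX followed by the catecholamine adrenaline at 0.5 mg/kg (ADX+ADR, 13 to 14 weeks), or ADX with later injections of 5 mg/kg of the synthetic glucocorticoid dexamethasone (ADX+DEX, 11 to 14 weeks). RE-RE mice carried Bmal1(stopFL/stopFL) with Syt10-Cre(-/tg) and Hsa-Cre(-/tg) and had sham surgery (9 to 14 weeks) or ADX (8 to 18 weeks). In them the blocked clock gene Bmal1 (Arntl) is restored by Cre in brain through the Syt10 driver and in skeletal muscle through the Hsa driver, so other tissues, the adrenal gland among them, are without it. Each of the 12 groups had 4 libraries, except WT ADX at ZT0 with 3. Hormones were injected for 10 days at ZT12, and the design text also gives a recovery time after treatment, so the interval between the last dose and sampling is not clear from it. A vehicle-injected group was not analysed here, and injection and hormone cannot be told apart. Mice with ADX drank saline with glucose, and lack the adrenaline, corticosterone and aldosterone of the glands together.

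Growth factor receptors of the tyrosine kinase class switch on RAS, which passes the signal through RAF and MEK to the kinase ERK. Each step has a brake that is itself often made in response to the signal. ERRFI1 (also called MIG6) binds the kinase domain of EGF receptors and blocks it. Sprouty and SPRED proteins act on RAS and RAF, SPRED1 by bringing the RAS inactivator neurofibromin to the membrane. Dual-specificity phosphatases remove the phosphates that activate ERK and its relatives: DUSP1 is nuclear and acts on p38, JNK and ERK, DUSP7 is cytoplasmic and prefers ERK. SGK1 is a relative of AKT that is activated downstream of PI3-kinase and mTORC2, and its gene, like Dusp1 and Errfi1, is a known glucocorticoid target. Dusp1 and Errfi1 are also known as immediate early genes, which respond to growth factors, cAMP and stress.

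A stretch before an annotated start is shown for each of Sgk1, Errfi1 and Dusp1 because hormone-response motifs were found there. They are from RefSeq (GRCm38.p6), are written 5′ to 3′ on the strand of the gene, and carry the motif matches in capitals. The lines give 250 bases for Sgk1 (chr10:21993640-21993889, plus strand) and Errfi1 (chr4:150854820-150855069, plus strand), and 203 bases for Dusp1 (chr17:26508520-26508722, minus strand), whose 47 bases nearest the start are left out because they lie in an annotated exon.
Sgk1: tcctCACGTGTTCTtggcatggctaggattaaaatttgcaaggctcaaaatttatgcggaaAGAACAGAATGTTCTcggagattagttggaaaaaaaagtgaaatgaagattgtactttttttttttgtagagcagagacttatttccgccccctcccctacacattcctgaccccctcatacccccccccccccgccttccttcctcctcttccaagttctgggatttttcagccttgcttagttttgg
Errfi1: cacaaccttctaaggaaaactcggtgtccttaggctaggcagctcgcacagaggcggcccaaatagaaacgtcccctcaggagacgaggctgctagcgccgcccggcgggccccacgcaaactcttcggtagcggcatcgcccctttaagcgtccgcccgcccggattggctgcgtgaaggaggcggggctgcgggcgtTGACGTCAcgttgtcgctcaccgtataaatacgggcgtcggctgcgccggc
Dusp1: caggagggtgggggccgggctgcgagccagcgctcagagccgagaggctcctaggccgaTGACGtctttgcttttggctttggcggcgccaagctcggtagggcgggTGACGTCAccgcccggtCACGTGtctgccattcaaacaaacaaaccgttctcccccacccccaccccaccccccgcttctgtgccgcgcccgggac

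The Sgk1 stretch holds a full glucocorticoid response element, the paired site of the glucocorticoid receptor, searched as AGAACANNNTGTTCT on both strands. It starts 189 bases before an annotated start that lies inside the gene, which spans chr10:21882184-21999903 and has 13 annotated transcripts. The windows before other Sgk1 starts held no full glucocorticoid response element. Among 32851 windows of 250 bases over all genes of the RefSeq table, 3 held that sequence (0.00913%). The Errfi1 stretch, also inside its gene, holds a full cAMP response element, TGACGTCA, 51 bases before its start. The Dusp1 stretch holds another 143 bases before its start. That element was in 508 windows (1.55%). The clock factor site CACGTG, an E-box, was in 6.02% of windows. It stood in the Sgk1 stretch at 246 bases and in the Dusp1 stretch at 126 bases. In Sgk1 it overlapped a partial glucocorticoid site, TGTTCT, which is AGAACA read on the other strand (16.1% of windows). The other windows of the 7 genes, 13 windows in all, held no further full element of either kind. The windows of Dusp7, Spry1, Spry2 and Spred1 held no match to the searched motifs, which also included the shorter cAMP site TGACG (17.8%) and the D-box TTATGTAA (0.819%). A match is a sequence in this window only.

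The table gives the level of each gene scaled to its length and to the depth of the library (FPKM) on a log2 scale with 0.01 added. Depth recovered from the steps of low values was 16.3 to 35.7 M reads per library (median 22.6 M), so 1 FPKM of Dusp1 corresponds to 53.8 to 118 reads, and counting error alone is small at such numbers. All 10 muscle fibre markers were above 0 in every library. Arntl was at 13.4 to 15.2 FPKM in RE-RE sham libraries at ZT0 and at 14.2 to 18.8 in WT sham. Values of exactly 0 made up 1.59% of the table and reached genes of high level: 96 of 3322 genes with a mean above 10 FPKM had at least 1. They may be failed estimates, and such a gene is called listed at 0. Among the 7 genes this concerned Dusp1 only, in 4 libraries. A further 7 libraries stood apart in that they shared at most 1 exact low value with others, where the other 40 shared 25 to 103: WT sham replicates 4 (ZT0) and 8 (ZT12), RE-RE sham replicates 2 (ZT0) and 6 (ZT12), and RE-RE ADX replicates 1 and 4 (ZT0) and 5 (ZT12). Results that changed without them are given as such. All WT ADX, ADX+ADR and ADX+DEX libraries were among the 40. Comparisons between those groups therefore kept every compared library and the same estimate, and only the SE and adjusted p could move.

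Every comparison below is a two-sided limma test in 1 model of all 47 libraries, with p-values adjusted by Benjamini-Hochberg over 12000 tested genes and a call at an adjusted p under 0.05. Differences are log2 ± SE. The test for any difference among the 12 groups called 7 of the 7 genes, against 94.6% of all tested genes. The plot of levels by library shows 3 patterns that the numbers below follow. Dusp7 and Sgk1 were higher at ZT12 than at ZT0 in sham mice of both genotypes. Dusp1, Errfi1 and Sgk1 were higher after hormone injection than after ADX alone in WT mice. Uninjected RE-RE sham mice at ZT12 also had high Dusp1 and Sgk1, at means of 45.5 and 59.6 FPKM. After dexamethasone Spred1 was low at both times and Spry1 at ZT0.

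**Figure D1:**
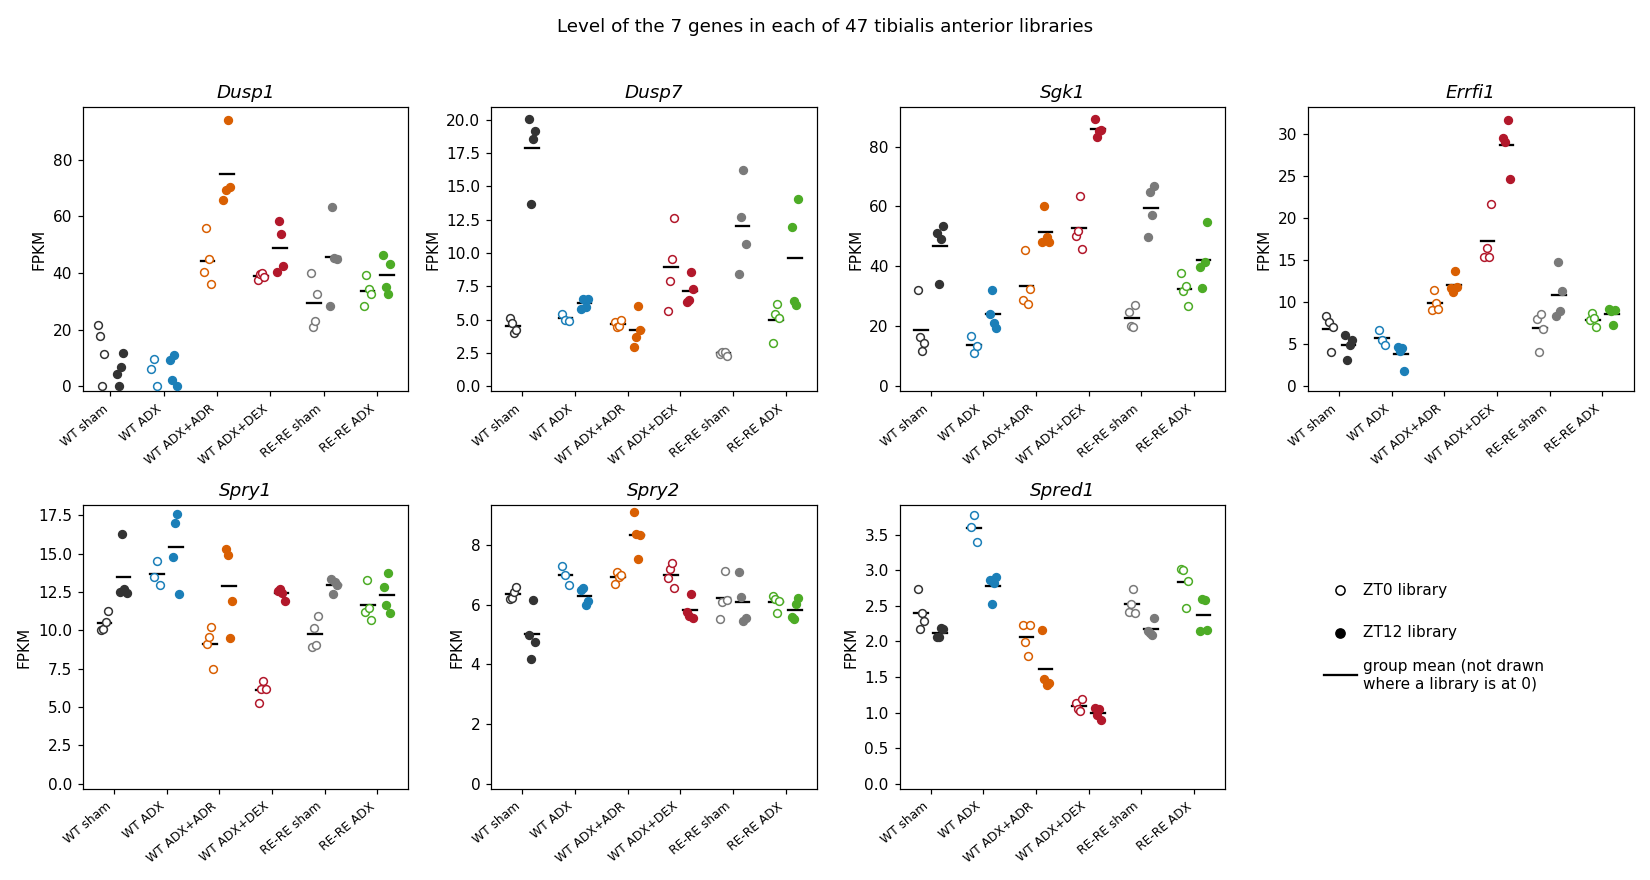
Level of each of the 7 genes in every library, in FPKM on a linear axis starting at 0, by condition; open points are ZT0, filled points ZT12, and bars are group means, left out for Dusp1 groups with a library at 0. Dusp7 reached 20.1 FPKM in WT sham at ZT12 and 31.7 FPKM was the highest Errfi1 value, in ADX+DEX at ZT12.

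Dusp7, the cytoplasmic ERK phosphatase, differed most with the time of day. In WT sham muscle it stood at 5.11, 4.74, 4.01 and 4.23 FPKM at ZT0 and at 20.1, 13.7, 18.6 and 19.1 at ZT12. The groups were far from overlapping, and the difference was 1.97 ± 0.23 (3.92-fold, adjusted p 4.6e-08). After ADX the values were 5.40, 4.99 and 4.90 at ZT0 and 5.82, 6.53, 5.92 and 6.57 at ZT12, a difference of 0.28 ± 0.24 that missed the threshold (adjusted p 0.51). The evening level was thus lower after ADX, by -1.51 ± 0.23 (0.351-fold, adjusted p 6.1e-06), while the ZT0 levels of sham and ADX differed by 0.18 ± 0.24 (adjusted p 0.62). The test of the difference between both time effects gave -1.69 ± 0.33 (adjusted p 0.0034). All 3 of these calls held in every alternative tried, and for this interaction 1.54% of all genes were called, 1 of the 7 among them.

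With neither hormone did Dusp7 reach the evening level of sham muscle. With adrenaline it was at 4.78, 4.45, 4.48 and 4.93 FPKM at ZT0 and at 2.96, 3.68, 5.99 and 4.20 at ZT12, which overlap. The ZT12 values lay below those of ADX alone by -0.61 ± 0.23 (adjusted p 0.024), a call lost without WT ADX replicate 7 (-0.58, adjusted p 0.051) or ADX+ADR replicate 5 (-0.45, 0.11) or 6 (-0.56, 0.058). With dexamethasone Dusp7 was at 5.65, 7.91, 9.55 and 12.7 FPKM at ZT0, above all 3 ADX libraries (0.75 ± 0.24, adjusted p 0.0069), and at 6.33, 6.49, 8.54 and 7.30 at ZT12. The ADX+DEX libraries at ZT0 spread over the widest range of any Dusp7 group at that time. Dexamethasone minus adrenaline was 0.88 ± 0.23 at ZT0 and 0.80 ± 0.23 at ZT12 (adjusted p 0.0014 and 0.0040).

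In RE-RE sham muscle Dusp7 was at 2.43, 2.58, 2.53 and 2.29 FPKM at ZT0, under every WT sham library, and at 8.42, 12.7, 16.2 and 10.7 at ZT12. The time difference was 2.24 ± 0.23 (4.73-fold, adjusted p 3.4e-09). It differed from that of WT sham by 0.27 ± 0.32 (95% interval -0.38 to 0.92, adjusted p 0.78). The ZT0 level was lower than in WT sham by -0.87 ± 0.23 (adjusted p 0.0046). After ADX, RE-RE mice had 3.24, 5.41, 6.16 and 5.15 FPKM at ZT0 and 12.0, 6.42, 6.11 and 14.0 at ZT12, so that 2 evening libraries stayed high and the other two were near the morning range. The rise at ZT0 with ADX was 0.98 ± 0.23 (adjusted p 0.0096) and the ZT12 change -0.37 ± 0.23 (adjusted p 0.36). The ADX effect at ZT12 differed between genotypes by 1.14 ± 0.32 (adjusted p 0.026). This last call was lost without any 1 of WT sham replicate 5, RE-RE sham replicates 5 and 8 or RE-RE ADX replicates 5 and 8 of ZT12 (0.92 to 1.09, adjusted p 0.055 to 0.090), and without the libraries that stand apart (1.00, 0.15). At ZT12 the Dusp7 difference of RE-RE from WT missed the threshold in sham (-0.60, adjusted p 0.058) and after ADX (0.54, 0.058). Both passed with 1 FPKM added before the logarithm (-0.56 and 0.48, adjusted p 0.039 and 0.047), and the ADX one with age as a covariate (0.56, 0.047). They also passed with some single libraries left out: in sham without WT sham replicate 6 (-0.72, adjusted p 0.035) or RE-RE sham replicate 7 (-0.76, 0.024), and after ADX without RE-RE ADX replicate 6 or 7 (0.70 and 0.72, 0.019 and 0.015). The time difference in RE-RE ADX was 0.89 ± 0.23 (adjusted p 0.049). Without the libraries that stand apart it fell to 0.50 and was not called. It was also lost without RE-RE ADX replicate 1, 2 or 4 of ZT0 or 5 or 8 of ZT12 (0.68 to 0.94, adjusted p 0.056 to 0.29).

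Sgk1, the AKT-related kinase, also rose by evening in sham mice of both genotypes, and was higher with both hormones than in ADX alone. In WT sham muscle it was at 32.1, 16.2, 11.8 and 14.3 FPKM at ZT0 and at 51.2, 34.0, 49.1 and 53.4 at ZT12. The lowest evening value was above the highest morning value, and the difference was 1.43 ± 0.21 (2.69-fold, adjusted p 3.0e-06). After ADX it was at 16.8, 10.9 and 13.5 at ZT0 and at 24.0, 32.1, 21.0 and 19.3 at ZT12. The evening level was lower than in sham by -0.97 ± 0.21 (adjusted p 0.00061), with no overlap. The remaining rise of 0.81 ± 0.22 (adjusted p 0.016) was lost without WT ADX replicate 2 of ZT0 (0.65, adjusted p 0.13) or 5 of ZT12 (0.66, 0.082), and with a model of the compared groups alone (0.81, 0.12). The time effects in ADX and sham differed by -0.62 ± 0.30, with an adjusted p of 0.35, so a smaller rise in ADX was not shown for Sgk1.

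With adrenaline Sgk1 was at 28.7, 45.4, 27.4 and 32.5 FPKM at ZT0 and 48.2, 60.3, 49.7 and 48.0 at ZT12, all above ADX alone at the same time (1.28 ± 0.22 and 1.12 ± 0.21, adjusted p 1.2e-05 and 2.6e-05). With dexamethasone it was at 50.1, 51.7, 63.6 and 45.7 at ZT0 and 89.3, 83.3, 85.2 and 85.6 at ZT12, the highest group of the 12. Dexamethasone minus ADX was 1.95 ± 0.22 at ZT0 and 1.86 ± 0.21 at ZT12 (adjusted p 9.4e-10 and 6.9e-10). Dexamethasone gave higher levels than adrenaline, by 0.67 ± 0.21 and 0.74 ± 0.21 (adjusted p 0.0064 and 0.0036). The evening rise within adrenaline, 0.64 ± 0.21 (adjusted p 0.032), was lost without ADX+ADR replicate 1, 3 or 4 of ZT0 or 6 or 7 of ZT12 (0.56 to 0.66, adjusted p 0.058 to 0.11) and without the libraries that stand apart (0.64, 0.052). The rise within dexamethasone was 0.71 ± 0.21 (adjusted p 0.0078).

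In RE-RE sham muscle Sgk1 was at 24.7, 20.0, 19.6 and 27.2 FPKM at ZT0 and 49.9, 64.7, 57.2 and 66.8 at ZT12 (1.39 ± 0.21, adjusted p 9.3e-06). RE-RE ADX libraries were at 37.7, 31.7, 33.4 and 26.8 at ZT0 and 39.9, 32.8, 41.4 and 54.7 at ZT12, where the times overlap (0.37 ± 0.21, adjusted p 0.51). Both RE-RE ADX groups were above WT ADX, by 1.25 ± 0.22 at ZT0 and 0.81 ± 0.21 at ZT12 (adjusted p 3.6e-05 and 0.0021). RE-RE sham differed from WT sham at ZT0 once WT sham replicate 1, at 32.1 FPKM, was left out (0.70, adjusted p 0.0068), and the ADX effect at ZT0 differed between genotypes without WT sham replicate 3 (1.03, 0.022) or WT ADX replicate 1 (1.00, 0.037). The RE-RE time effects with and without adrenals differed by -1.02 ± 0.29 (adjusted p 0.19), and the comparison called 0 of the 7 genes and 0.0667% of all genes by limma, with 3 of the 7 at an unadjusted p under 0.05. The same test gave -1.35 ± 0.32 for Dusp7 (adjusted p 0.11), which passed without RE-RE sham replicate 5, RE-RE ADX replicate 1 of ZT0, or RE-RE ADX replicate 5 or 8 of ZT12 (-1.49 to -1.57, adjusted p 0.015 to 0.045).

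**Figure D2:**
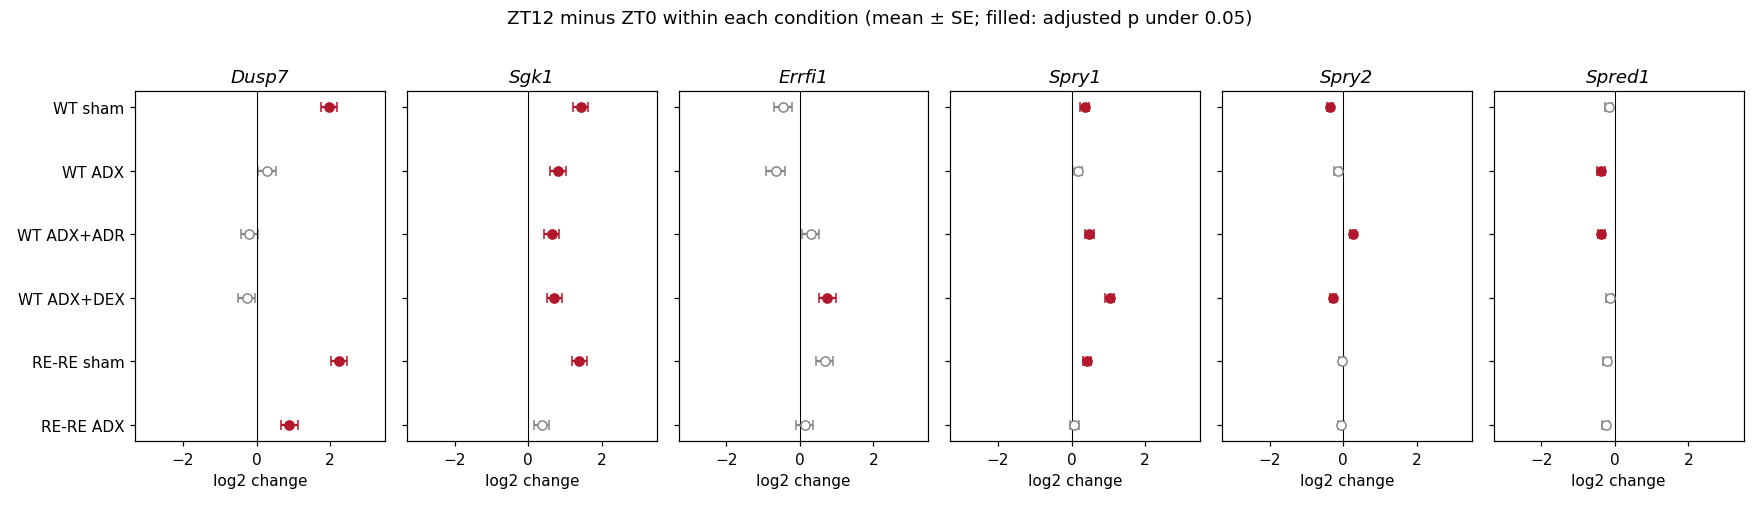
Difference between ZT12 and ZT0 (log2, with SE bars) of 6 genes in the 6 conditions; Dusp1 is not drawn because 4 libraries list it at 0. Dusp7 stood at 0.28 in WT ADX, against 1.97 in intact WT and 2.24 in intact RE-RE mice, and Spry1 was highest with dexamethasone at 1.03.

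The glucocorticoid receptor reference targets, a list of 8 genes such as Klf15, Klf9 and Sult1a1, give the context of these 2 genes. In WT sham 7 of 8 rose from ZT0 to ZT12 and 0 fell (median 1.13, against 0.01 over all tested genes). With ADX at ZT12, 7 of 8 were lower (median -1.34 against -0.02). With adrenaline at ZT12 8 of 8 were higher than in ADX (median 1.08), and with dexamethasone 8 of 8 (median 1.89). Of all genes, 23.5% were called for time in WT sham and 26.9% for ADX at ZT12. The shares were 53.0% for adrenaline and 66.3% for dexamethasone. The list was chosen with earlier results of these data known. Klf15, a transcription factor of amino acid breakdown in muscle, was higher with adrenaline by 1.66 ± 0.14 and with dexamethasone by 1.96 ± 0.14 at ZT12 (adjusted p 1.7e-11 and 3.0e-14). Fkbp5, a chaperone of the receptor, was listed at 0 in all 7 ADX libraries and at 35.4 to 37.4 FPKM with dexamethasone at ZT12.

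Dusp1, the nuclear phosphatase of p38, JNK and ERK, was lower in WT mice that had not been injected than in mice given either hormone. WT sham libraries had 21.5, 17.6, 0 and 11.3 FPKM at ZT0 and 4.11, 0, 6.65 and 11.9 at ZT12. WT ADX libraries had 6.05, 9.67 and 0 at ZT0 and 9.37, 2.03, 11.0 and 0 at ZT12. With adrenaline the values were 40.4, 55.8, 44.9 and 36.0 at ZT0 and 66.0, 69.5, 94.0 and 70.6 at ZT12. The lowest of them was above the highest WT sham value.

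With dexamethasone Dusp1 was at 37.4, 39.5, 40.1 and 38.5 FPKM at ZT0 and 40.5, 58.4, 53.6 and 42.4 at ZT12. At ZT12 every adrenaline library was above every dexamethasone library, but the difference of -0.62 was not called (adjusted p 0.83), nor with the zeros of other groups treated as missing (0.13). It was called with a model of the compared groups alone (0.013). RE-RE sham libraries were at 40.1, 21.0, 23.0 and 32.7 at ZT0 and 28.4, 63.4, 45.4 and 44.8 at ZT12, and RE-RE ADX libraries at 28.2, 39.5, 34.4 and 32.6 and at 46.3, 35.1, 32.6 and 43.2. At ZT12 no RE-RE sham library reached down to the WT sham range. At ZT0 the RE-RE and WT sham ranges met, at 21.0 and 21.5 FPKM, and the difference was not called on the deposited scale (adjusted p 0.20), with zeros as missing (0.80, 0.11) or with 1 FPKM added (1.79, 0.058). No fold against the WT sham and WT ADX groups is given on the deposited scale, because each holds 1 library listed at 0 and the offset of 0.01 sets its size.

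The Dusp1 calls depended on those 4 libraries. On the deposited scale Dusp1 was called higher than in WT ADX with adrenaline (adjusted p 0.023 at ZT0, 0.010 at ZT12), with dexamethasone (0.020 and 0.016) and in RE-RE ADX (0.043 and 0.040). Without WT ADX replicate 3 of ZT0, which is at 0, the 3 adjusted p-values at ZT0 were 0.35, 0.34 and 0.47, and without replicate 7 of ZT12, also at 0, those at ZT12 were 0.11, 0.16 and 0.27. With the zeros treated as missing the calls held for adrenaline (2.51 ± 0.41 and 3.64 ± 0.36, adjusted p 6.8e-06 and 1.0e-09), dexamethasone (2.34 and 3.02) and RE-RE ADX (2.13 and 2.71). They also held with 1 FPKM added before the logarithm (adrenaline 3.40 ± 0.76 and 4.10 ± 0.71, adjusted p 0.00030 and 8.3e-06). RE-RE sham against WT sham at ZT12 was not called on the deposited scale. It was called with zeros as missing (2.67, adjusted p 2.4e-06), with 1 FPKM added (3.24, 0.00094) and without WT sham replicate 8 of ZT12 (adjusted p 0.041). The time difference in WT sham was likewise not called on the deposited scale (adjusted p 0.78) or with 1 FPKM added (-0.84, 0.41), but with zeros as missing it was a called fall from ZT0 to ZT12 (-1.24 ± 0.39, 0.018). With a model of the compared groups alone, the 3 calls against WT ADX at ZT0 were lost (adjusted p 0.083, 0.068 and 0.11), as was that of RE-RE ADX at ZT12 (0.088), and the rise with adrenaline from ZT0 to ZT12 was called (0.77, 0.020). The RE-RE ADX calls against WT ADX were also lost without any 1 RE-RE ADX library of that time or WT ADX replicate 5 of ZT12 (adjusted p 0.053 to 0.074), and without the libraries that stand apart (0.14 and 0.099).

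Genes known to respond within minutes to handling and stress were also at their highest sums in injected mice. The summed level of 8 such genes, Fos, Jun, Egr1, Atf3, Ier2, Hspa1a, Hspa1b and Dnajb1, was 13.9 to 73.6 FPKM in WT sham, 13.7 to 69.0 in WT ADX, 96.0 to 231.4 in ADX+ADR and 94.1 to 143.1 in ADX+DEX. In RE-RE it was 53.8 to 74.3 (sham) and 58.7 to 73.0 (ADX). Against WT ADX at ZT12, 4 of these 8 genes were higher with adrenaline and 0 lower (53.0% of all genes were called), and with dexamethasone 3 were higher and 2 lower (66.3%). In WT sham 4 of the 8 fell from ZT0 to ZT12 and 0 rose (23.5%). In the 4 libraries that list Dusp1 at 0 the sum was 13.9, 15.9, 39.3 and 13.7, and Fos was itself listed at 0 in all 3 WT ADX libraries of ZT0 and all 4 WT sham libraries of ZT12. The part of handling or of the injection in the Dusp1 and Errfi1 levels was not tested.

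Errfi1, the EGF receptor inhibitor, rose with both hormones, and more with dexamethasone than with adrenaline. In WT ADX muscle it was at 6.68, 5.47 and 4.87 FPKM at ZT0 and 4.69, 4.19, 4.53 and 1.82 at ZT12. With dexamethasone it was at 15.4, 16.5, 15.3 and 21.7 at ZT0 and 29.6, 29.1, 31.7 and 24.7 at ZT12, so that all 4 evening libraries lay above all 4 morning ones. The increase over ADX was 1.60 ± 0.25 at ZT0 (3.03-fold, adjusted p 8.8e-07) and 3.0 ± 0.24 at ZT12 (8.01-fold, adjusted p 1.4e-13), and the time effect was larger than in ADX by 1.40 ± 0.35 (adjusted p 0.0042). Adrenaline gave 9.02, 11.4, 9.90 and 9.13 at ZT0 and 11.6, 11.2, 13.7 and 11.8 at ZT12, also above every ADX library of the same time (0.80 ± 0.25 and 1.75 ± 0.24, adjusted p 0.0084 and 1.4e-07). Dexamethasone exceeded adrenaline by 0.80 ± 0.24 at ZT0 and 1.25 ± 0.24 at ZT12 (adjusted p 0.0049 and 4.4e-05). The summed handling genes were at 114.7 to 143.1 FPKM with dexamethasone and 96.0 to 161.6 with adrenaline at ZT0, and at 94.1 to 136.5 and 167.2 to 231.4 at ZT12.

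In sham muscle Errfi1 was at 8.30, 7.65, 4.09 and 7.02 FPKM at ZT0 and 6.12, 3.13, 4.87 and 5.47 at ZT12 in WT, and at 7.98, 4.12, 8.56 and 6.80 and then 8.39, 14.7, 8.89 and 11.3 in RE-RE. The 4 RE-RE evening values were above the 4 WT ones by 1.15 ± 0.24 (adjusted p 0.00053). RE-RE ADX libraries, at 7.82, 8.72, 8.10 and 6.99 at ZT0 and 9.14, 8.98, 7.33 and 9.11 at ZT12, were above WT ADX at ZT12 by 1.27 ± 0.24 (adjusted p 6.6e-05). Neither sham time difference was called, at -0.46 ± 0.24 in WT (adjusted p 0.16) and 0.68 ± 0.24 in RE-RE (0.058). The WT one was called without WT sham replicate 3 of ZT0 (-0.68, adjusted p 0.039), as was the difference between both genotypes (1.36, 0.043), and the RE-RE one without RE-RE sham replicate 3 of ZT0 or 5 of ZT12 (0.80 and 0.79). Handling genes moved with the genotype here too, 5 of 8 being higher in RE-RE than WT sham at ZT12 and 0 lower (19.3% of all genes were called).

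**Figure D3:**
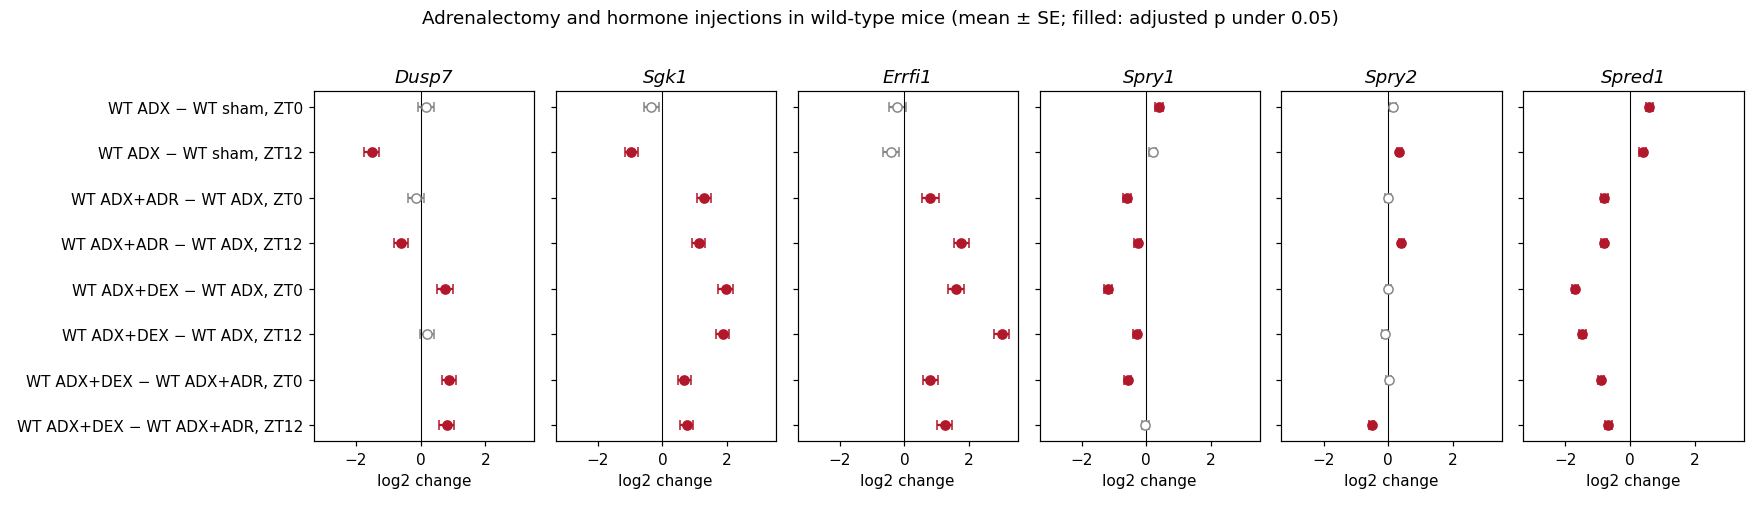
Differences (log2, with SE bars) at ZT0 and ZT12 for 6 genes in 4 comparisons: ADX minus sham, adrenaline minus ADX, dexamethasone minus ADX and dexamethasone minus adrenaline, all in WT; filled points had an adjusted p under 0.05. Errfi1 and Sgk1 lie above 0 and Spred1 below 0 in both hormone comparisons with ADX.

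Spred1, the partner of neurofibromin, changed opposite to these genes. It was at 2.74, 2.17, 2.39 and 2.29 FPKM in WT sham at ZT0 and at 3.61, 3.78 and 3.40 after ADX, with no overlap (0.59 ± 0.11, adjusted p 6.3e-05). At ZT12 the values were 2.06, 2.07, 2.19 and 2.17 in sham and 2.87, 2.52, 2.82 and 2.90 in ADX (0.38 ± 0.10, adjusted p 0.0034). Dexamethasone lowered it to 1.13, 1.05, 1.02 and 1.19 at ZT0 and 1.07, 0.961, 1.04 and 0.892 at ZT12. That is -1.71 ± 0.11 against ADX at ZT0 (0.306-fold, adjusted p 2.2e-16) and -1.48 ± 0.10 at ZT12 (adjusted p 2.0e-15). Adrenaline gave 2.23, 1.99, 1.80 and 2.23 at ZT0 and 2.16, 1.48, 1.39 and 1.42 at ZT12 (-0.80 ± 0.11 and -0.81 ± 0.10, adjusted p 1.4e-07 and 2.6e-08). The drop with dexamethasone was larger than with adrenaline at both times, by -0.90 ± 0.10 and -0.67 ± 0.10 (adjusted p 1.2e-09 and 7.6e-07).

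Spred1 was at 2.41, 2.53, 2.74 and 2.40 FPKM in RE-RE sham at ZT0 and 3.02, 3.01, 2.46 and 2.84 in RE-RE ADX. The latter lay below WT ADX by -0.35 ± 0.11 (adjusted p 0.0095). At ZT12 the RE-RE values were 2.15, 2.12, 2.08 and 2.33 (sham) and 2.15, 2.60, 2.59 and 2.17 (ADX), which overlap. RE-RE ADX against WT ADX at ZT12 passed without WT ADX replicate 5 or RE-RE ADX replicate 6 or 7 (-0.27 in each, adjusted p 0.041 to 0.044), and the time effects with dexamethasone and adrenaline differed without ADX+ADR replicate 5 of ZT12 (0.38, 0.026). The ADX effect at ZT0 did not pass the test of a genotype difference on the deposited scale, but passed with 0.1 FPKM added (-0.41, adjusted p 0.0498) and without WT sham replicate 1 (-0.49, 0.031) or RE-RE ADX replicate 2 (-0.45, 0.0499). From ZT0 to ZT12 Spred1 fell in WT ADX by 0.37 ± 0.11 (adjusted p 0.020) and with adrenaline by 0.37 ± 0.10 (0.0082). These calls were lost without WT ADX replicate 2 of ZT0 or 5 of ZT12 (-0.34 and -0.33, adjusted p 0.10 and 0.078) and without ADX+ADR replicate 7 of ZT12 (-0.31, 0.052).

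Spry1, a Sprouty inhibitor of RAS and RAF signalling, had its lowest values in the morning under dexamethasone. It was at 10.0, 10.1, 10.6 and 11.3 FPKM in WT sham at ZT0, at 13.5, 14.5 and 13.0 in ADX, at 9.14, 9.56, 10.2 and 7.50 with adrenaline and at 5.26, 6.16, 6.71 and 6.18 with dexamethasone. No dexamethasone library reached the lowest of any other group. The ZT0 change was 0.38 ± 0.12 for ADX (adjusted p 0.017), -0.59 ± 0.12 for adrenaline against ADX (0.00015) and -1.17 ± 0.12 for dexamethasone against ADX (1.6e-10). The ADX call was lost without WT ADX replicate 2 (0.34, adjusted p 0.077) and with age as a covariate (0.33, 0.063), and ADX mice were older than sham mice.

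At ZT12 the Spry1 levels of the conditions lay close together: 12.5, 16.3, 12.7 and 12.5 FPKM in WT sham, 14.8, 17.0, 17.6 and 12.4 in ADX, 15.3, 14.9, 9.47 and 11.9 with adrenaline, and 12.6, 12.7, 12.4 and 11.9 with dexamethasone. The time difference with dexamethasone was therefore the largest of the 6, at 1.03 ± 0.11 (2.05-fold, adjusted p 6.9e-09). It exceeded that in ADX by 0.87 ± 0.17 (adjusted p 0.00038) and that with adrenaline by 0.55 ± 0.16 (0.019, lost without ADX+ADR replicate 7 of ZT12 at 0.41, 0.070). Smaller rises were called in adrenaline (0.48 ± 0.11, adjusted p 0.0031), RE-RE sham (0.41 ± 0.11, 0.014) and WT sham (0.35 ± 0.11, 0.021). The WT sham rise was lost without replicate 1 of ZT0 (0.33, 0.053) or 6 of ZT12 (0.26, 0.12), and the RE-RE one without RE-RE sham replicate 1 of ZT0 (0.37, 0.053).

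Against ADX at ZT12, Spry1 was lower with adrenaline (-0.27 ± 0.11, adjusted p 0.044), dexamethasone (-0.30 ± 0.11, 0.020) and in RE-RE ADX (-0.32 ± 0.11, 0.027). All 3 rest on WT ADX replicates 5 and 6, at 17.0 and 17.6 FPKM: without replicate 5 the values were -0.22, -0.25 and -0.27 (adjusted p 0.14, 0.074 and 0.092) and without replicate 6 -0.20, -0.23 and -0.25 (0.17, 0.092 and 0.11). The adrenaline call was also lost without WT ADX replicate 4 (-0.29), ADX+ADR replicate 7 (-0.13) or 8 (-0.24), with age as a covariate (-0.24) or without the libraries that stand apart (-0.27). The RE-RE call was also lost without RE-RE ADX replicate 6 (-0.29) or 8 (-0.27), or without those libraries (-0.34, adjusted p 0.053). RE-RE sham libraries had 8.89, 10.1, 9.07 and 10.9 FPKM at ZT0 and 13.4, 12.4, 13.1 and 12.9 at ZT12, and RE-RE ADX libraries 11.2, 13.3, 11.5 and 10.7 and then 12.8, 11.6, 13.7 and 11.1.

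Endothelial genes also differed between the conditions. Of 10 endothelial markers, 7 were higher and 1 lower in ADX than sham at ZT0, and 8 and 1 at ZT12. With adrenaline 1 was higher and 7 lower than in ADX at ZT0 (1 and 6 at ZT12), and with dexamethasone 1 higher and 9 lower (1 and 8 at ZT12). Of all genes, 32.0% and 26.9% were called for ADX, 51.1% and 53.0% for adrenaline and 68.9% and 66.3% for dexamethasone. Their summed level was 142.7 to 187.9 FPKM in WT sham, 222.3 to 279.8 in ADX, 154 to 257.1 with adrenaline, 94.9 to 115.3 with dexamethasone, 134.9 to 172.8 in RE-RE sham and 130 to 181.4 in RE-RE ADX. Between times the sums did not follow these genes in every condition. With dexamethasone the mean sum was 106 FPKM at ZT0 and 107 at ZT12, where mean Spry1 was 6.08 and 12.4, and in WT sham it was 177 and 150, where Spry1 was 10.5 and 13.5. With adrenaline it was 159 and 223, where mean Spred1 was 2.06 and 1.61. In the 4 adrenaline libraries of ZT12 the sums of 257.1, 240.7, 175.2 and 220.6 FPKM stood in the same order as the Spry1 values and as the Spred1 values. This was not so in every group. With dexamethasone at ZT0 the library with the highest Spry1 (6.71 FPKM) had a sum of 104.2. The library with the lowest Spry1 there (5.26 FPKM) had a sum of 106.9. In whole muscle, fewer cells of a type and less RNA per cell cannot be told apart, and the part of endothelial cells in the Spry1 and Spred1 results was not tested.

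**Figure D4:**
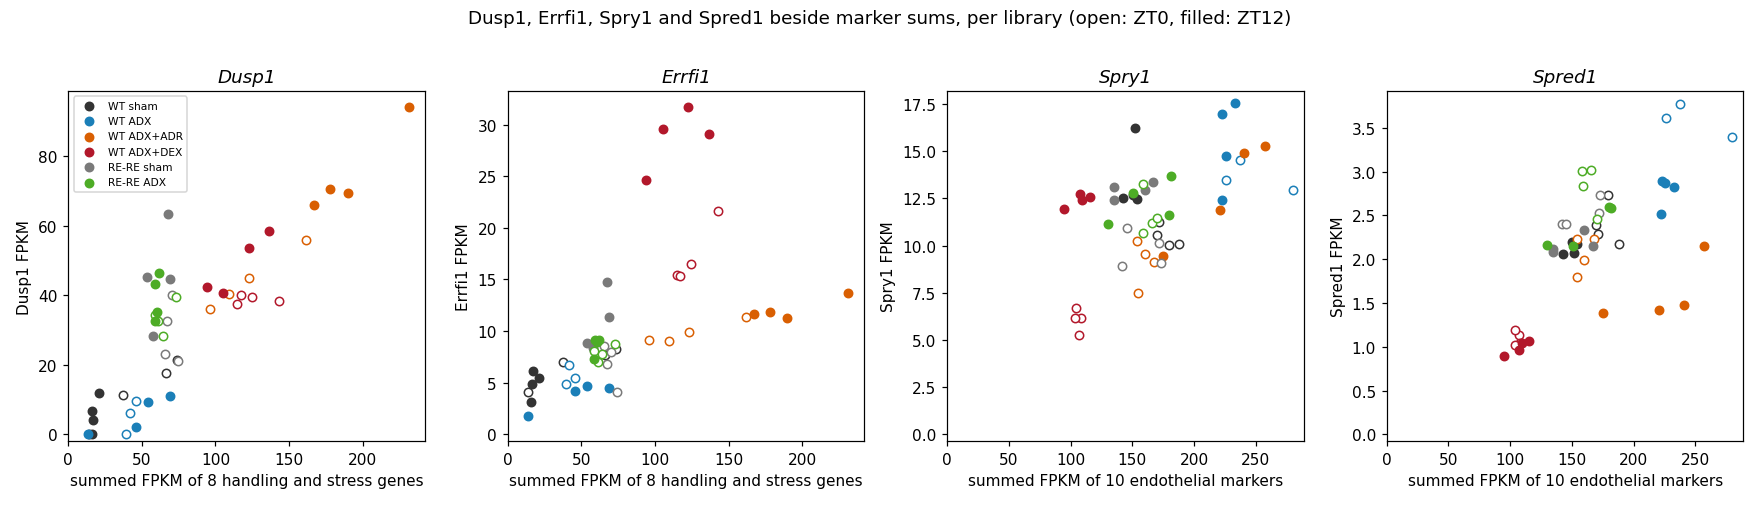
Level per library (FPKM) of Dusp1 and Errfi1 against the summed level of 8 handling and stress genes, and of Spry1 and Spred1 against the summed level of 10 endothelial markers, coloured by condition. ADX+DEX libraries lie at endothelial sums of 94.9 to 115.3 and hold the lowest Spred1 levels, and ADX+ADR libraries of ZT12 lie at handling sums of 167.2 to 231.4 and hold the highest Dusp1 levels.

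Spry2, the second Sprouty gene measured, varied least: its highest group mean was 1.66 times its lowest, against 2.54 for Spry1, 3.63 for Spred1, 6.25 for Sgk1, 7.26 for Dusp7 and 7.56 for Errfi1. In WT sham it was at 6.21, 6.21, 6.43 and 6.58 FPKM at ZT0 and 4.99, 4.17, 6.17 and 4.76 at ZT12, a drop of -0.35 ± 0.08 (adjusted p 0.0015). It also fell with dexamethasone, from 6.90, 7.18, 7.41 and 6.57 to 5.76, 5.62, 6.37 and 5.55 (-0.27 ± 0.08, adjusted p 0.011). With adrenaline the direction was opposite, from 6.71, 7.09, 6.93 and 6.99 to 9.11, 8.37, 7.54 and 8.33, the highest group. The time effects with dexamethasone and adrenaline differed by -0.53 ± 0.11 (adjusted p 0.0013), in every alternative tried. At ZT12 adrenaline was above ADX (6.50, 6.55, 5.98 and 6.12 FPKM) by 0.40 ± 0.08 (adjusted p 7.9e-05) and above dexamethasone, where the difference was -0.52 ± 0.08 (2.4e-06).

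ADX libraries had more Spry2 than sham at ZT12 (0.34 ± 0.08, adjusted p 0.0019), and were at 7.29, 7.01 and 6.66 FPKM at ZT0. In RE-RE mice Spry2 was at 5.51, 6.09, 7.13 and 6.16 at ZT0 and 7.11, 6.27, 5.47 and 5.54 at ZT12 in sham, and at 6.28, 6.20, 5.74 and 6.13 and then 5.60, 5.52, 6.01 and 6.22 in ADX, all overlapping. RE-RE sham was above WT sham at ZT12 by 0.29 ± 0.08 (adjusted p 0.010), lost without WT sham replicate 6 (0.20, 0.080), RE-RE sham replicate 5 (0.21, 0.073) or the libraries that stand apart (0.25, 0.12). A further 3 weaker calls each failed in several refits. The rise within adrenaline (0.26 ± 0.08, adjusted p 0.025) was lost without ADX+ADR replicate 1 or 3 of ZT0, 5, 6 or 8 of ZT12, or the libraries that stand apart (0.22 to 0.26, adjusted p 0.051 to 0.084). The larger time effect with adrenaline than in ADX (0.42 ± 0.12, 0.036) was lost without WT ADX replicate 1 or 2 of ZT0 or 6 or 7 of ZT12, or ADX+ADR replicate 1 or 3 of ZT0 or 5, 6 or 8 of ZT12 (0.37 to 0.42, 0.051 to 0.079). It was also lost without the libraries that stand apart (0.42, 0.075). The smaller ADX effect in RE-RE than in WT at ZT12 (-0.39 ± 0.11, 0.031) was lost without WT sham replicate 5, 6 or 8, WT ADX replicate 4 or 5, RE-RE sham replicate 5 or 6, or RE-RE ADX replicate 5 or 6 (-0.31 to -0.39, 0.050 to 0.087). This call, too, was lost without the libraries that stand apart (-0.34, 0.22).

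Counted by comparison, the 7 genes stood as follows beside all tested genes. From ZT0 to ZT12, 4 were called in WT sham (23.5% of all genes), 2 in WT ADX (11.0%), 4 with adrenaline (12.7%), 4 with dexamethasone (27.8%), 3 in RE-RE sham (10.8%) and 1 in RE-RE ADX (0.775%). ADX against sham called 2 at ZT0 (32.0%) and 4 at ZT12 (26.9%) in WT, and 1 (5.45%) and 0 (5.32%) in RE-RE. In the last of these limma tests 1 gene, Sgk1, had an unadjusted p under 0.05. Adrenaline against ADX called 5 at ZT0 (51.1%) and 7 at ZT12 (53.0%), and dexamethasone against ADX called 6 (68.9%) and 5 (66.3%), so that calls were common among all genes in both. Dexamethasone against adrenaline called 5 at ZT0 (48.6%) and 5 at ZT12 (42.6%).

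RE-RE against WT sham called 1 at ZT0 (24.1%) and 2 at ZT12 (19.3%), and RE-RE ADX against WT ADX called 3 (39.0%) and 4 (38%). The difference of time effects called 1 between adrenaline and ADX (4.62%), 2 between dexamethasone and ADX (17.2%), 2 between dexamethasone and adrenaline (13.6%) and 0 between RE-RE and WT sham (0.342%), where 2 of the 7 had an unadjusted p under 0.05 in limma. The difference of ADX effects between genotypes called 2 at ZT12 (6.43%) and 0 at ZT0 (10.7%), where 3 of the 7 had an unadjusted p under 0.05 in limma. The 3 comparisons with WT ADX share those libraries, as the comparisons with sham share theirs. The labels do not say that libraries of a group came from separate animals, so p-values measure the spread between these samples.

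Among other genes of the pathway, some rose and some fell with hormones, as among all tested genes, of which dexamethasone against ADX called 68.9% at ZT0 and 66.3% at ZT12 and adrenaline 51.1% and 53.0%. The counts of the lists stand beside these shares, and no difference of a list from all genes was tested. Of 18 other dual-specificity phosphatases tested, 5 rose and 8 fell with dexamethasone against ADX at ZT0 (median -0.07, against 0.04 over all genes), and 4 rose and 7 fell at ZT12 (median -0.22 against 0.02). Dusp3 (VHR), which acts on ERK and JNK, fell by 1.28 ± 0.08 at ZT0 and 1.18 ± 0.08 at ZT12 (adjusted p 3.3e-16 and 6.8e-16). Dusp13, a phosphatase of muscle and testis, rose by 1.05 ± 0.07 and 0.72 ± 0.07 (adjusted p 4.1e-15 and 1.4e-11). With adrenaline at ZT12 5 rose and 3 fell, led by Dusp10, a phosphatase of p38 and JNK, at 1.77 ± 0.22 (adjusted p 3.6e-08). In WT sham 3 of 18 differed with time, where 23.5% of all genes were called. Among them were Dusp8, a phosphatase of JNK and p38, at -0.83 ± 0.17 (adjusted p 0.00042) and Dusp14 at 0.53 ± 0.15 (0.0078).

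Of 18 other brakes on receptor tyrosine kinases and RAS, 7 rose and 1 fell with ADX at ZT0 (median 0.18 against -0.02). For that comparison 32.0% of all genes were called. With dexamethasone against ADX at ZT0, 5 rose and 10 fell (median -0.34 against 0.04). At ZT12 2 rose and 11 fell with dexamethasone (median -0.47 against 0.02) and 2 rose and 9 fell with adrenaline (median -0.32 against 0.01). Nf1, which codes for neurofibromin, fell by 0.89 ± 0.08 with dexamethasone at ZT12 (adjusted p 1.4e-11), beside the drop of its partner Spred1. Rasa3, another RAS inactivator, fell by 0.63 ± 0.09 there (adjusted p 1.1e-07) and by 0.54 ± 0.09 with adrenaline (5.1e-06), and had risen by 0.65 ± 0.10 with ADX at ZT0 (2.7e-06). Tob1, an antiproliferative factor, rose by 0.65 ± 0.09 with adrenaline at ZT12 (3.8e-07).

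Spry4, the Sprouty relative of Spry1 and Spry2, fell in WT sham from ZT0 to ZT12 by 0.87 ± 0.15 (adjusted p 5.9e-05) and was higher in ADX than sham at ZT12 by 1.24 ± 0.15 (2.0e-07). Spred2, the relative of Spred1, was higher there by 0.50 ± 0.11 (0.00056). Over the 18 brakes 3 were higher and 1 lower with ADX at ZT12 (26.9% of all genes were called). Ptprb, a phosphatase named for endothelium, fell with both hormones, as did most endothelial markers above (dexamethasone at ZT0 -0.60 ± 0.08, adjusted p 8.0e-08).

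Of 22 genes of the RAS-ERK cascade itself, 4 rose and 13 fell with dexamethasone at ZT0 (median -0.24 against 0.04), and 5 rose and 11 fell at ZT12 (median -0.14 against 0.02). Hras fell by 0.77 ± 0.07 and 0.96 ± 0.07 (adjusted p 6.2e-12 and 3.9e-15), and Mapk3 (ERK1) by 0.87 ± 0.09 and 0.73 ± 0.09 (2.4e-10 and 2.9e-09). Ptpn11 (SHP2), an activator of the cascade, rose by 1.16 ± 0.10 at ZT0 (4.0e-13). Adrenaline lowered 8 and raised 2 at ZT12, Mapk3 among them (-0.52 ± 0.09, adjusted p 6.8e-06). ADX at ZT12 raised 3 and lowered 3 (26.9% of all genes were called).

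Of 11 stress kinases of the p38 and JNK pathways, 5 rose and 3 fell with dexamethasone at ZT0 (median 0.08 against 0.04) and at ZT12 (0.12 against 0.02). Map2k3, a p38 activator, rose by 1.55 ± 0.08 at ZT0 (adjusted p 1.2e-18) and Mapk14 (p38 alpha) by 0.79 ± 0.08 (1.6e-11), while Mapk11 (p38 beta) fell by 2.31 ± 0.26 (6.8e-10). Of 12 transcriptional outputs of ERK, 8 rose and 2 fell with adrenaline at ZT12 (median 1.60 against 0.01), and 3 rose and 4 fell with dexamethasone (median 0.36 against 0.02). Fosl2, an AP-1 factor, rose by 2.15 ± 0.29 with adrenaline (1.6e-07) and fell by 1.77 ± 0.29 with dexamethasone (1.8e-06) at ZT12. Fos, Egr1 and Ier2 stand in this list and in that of handling genes.

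Around SGK1, 8 of 14 relatives, activators and substrates rose and 4 fell with dexamethasone at ZT12 (median 0.16 against 0.02), and 4 rose and 4 fell with adrenaline (0.02 against 0.01). Ndrg1, whose protein is a classical SGK1 substrate, rose by 1.19 ± 0.09 with dexamethasone (adjusted p 1.8e-13) and by 0.74 ± 0.09 with adrenaline (5.7e-08). Foxo3, a transcription factor restrained by SGK1 and AKT, rose in WT sham from ZT0 to ZT12 by 0.63 ± 0.08 (3.8e-07), was lower with ADX at ZT12 by -0.38 ± 0.08 (0.00062), and rose with dexamethasone at ZT0 by 1.40 ± 0.09 (2.3e-16). Wnk1, an SGK1 substrate, fell with dexamethasone at both times (-0.86 ± 0.05 and -0.63 ± 0.05, adjusted p 3.5e-16 and 2.9e-13).

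Of 16 growth factor receptors, 8 rose and 3 fell with dexamethasone at ZT12 (median 0.37 against 0.02), among them Insr, the insulin receptor (0.71 ± 0.08, adjusted p 4.5e-10). Of 12 growth factors 5 rose and 4 fell (median -0.01), and Pdgfb, a platelet-derived growth factor of endothelium, fell by 1.20 ± 0.11 (2.6e-12). Igf2 was at 10.1 to 12.0 FPKM in ADX at ZT12 and was listed at 0 in all 8 dexamethasone libraries.

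The genes whose 12 group means were most like those of each gene are given as a description, with Pearson's r over group means of log2(FPKM + 1) that share their libraries. They were Trp53bp2 (0.893), Chrac1 (0.879) and Cyb561 (0.877) for Dusp7, Cog8 (0.976), Xpc (0.974) and Rcsd1 (0.969) for Sgk1, and Otud1 (0.988) and Hspb2 (0.978) for Dusp1. For Errfi1 they were Eapp (0.958), Ube2l3 (0.955) and Tars (0.955), and for Spred1 Meox1 (0.990), Itpripl2 (0.990) and Lxn (0.988). For Spry1 they were Rad50 (0.965), Spsb1 (0.950) and Jarid2 (0.947), and for Spry2 Jund (0.948), Ier2 (0.889) and Pcna (0.880). Otud1 was listed at 0 in many WT libraries without hormone, including all 4 of WT sham at ZT12. Dusp1 was listed at 0 in 4 WT libraries without hormone, 1 of them in that group.

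All 7 genes are protein coding in GENCODE M21 (GRCm38). Dusp7 lies at chr9:106368632-106375724 and Spry1 at chr3:37639947-37644598 (plus strand), Spry2 at chr14:105891947-105896819 (minus), Spred1 at chr2:117121374-117182279 and Sgk1 at chr10:21882184-21999903 (plus). Dusp1 at chr17:26505590-26562128 (minus) overlaps Ergic1 on the opposite strand, Spry1 overlaps Gm42922, and Errfi1 at chr4:150853919-150868892 (plus) overlaps the antisense 1700045H11Rik. Whether strand was used in counting is not given in the sources used here, and reads of such pairs may not be told apart.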

How the data were processed

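Tibialis anterior RNA was sequenced in 47 libraries, grouped by the labels. Per the labels' protocols, reads were 60 bp single-end and averaged 25 M per sample. The submitters' processing notes name the GRCm38 build and, with no order or role, HISAT2 2.1.0, FastQC 0.11.8, featureCounts 1.6.2, Trim Galore 0.5.0 and edgeR 3.30.0. The authors deposited 1 table of 13500 genes on a log2 scale. Its minimum, -6.64, equals log2 of 0.01, so values were read as log2(FPKM + 0.01). Of its identifiers, 13441 matched a symbol.

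Group means of 12 groups were fitted with limma 3.58.1 (R 4.3.3, eBayes with trend, 35 residual degrees of freedom) to the deposited log2 values of the 12000 genes reaching 1 FPKM in at least 3 libraries. The model was tested on simulated data. Depth was recovered from 68 low genes, of whose 657 values 99.85% were whole reads within 0.05. Figures were made with Python 3.11.15 and matplotlib 3.10.9. Genes named from a list were, per comparison, up to 3 called genes with the smallest adjusted p and a mean of at least 1 FPKM. Genes whose values include 0 were then given as levels or left out, and not every list gene is shown in every comparison. Some genes that these rules name are not reported here. The members and lists were chosen with earlier results of these data known.

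Alternatives were log2 offsets of 1 and 0.1, no filter, equal library medians, only the groups compared, age as a covariate, zeros as missing, leaving out libraries that stand apart, omission of each library in turn, and a block for the replicate number. Muscle fibre, endothelial and handling markers are described above.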

Additional observations from a re-analysis of the deposited data

Results flagged for a closer look

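Between conditions or genotypes, 8 differences passed the limma test of the difference itself. The time effect of Dusp7 was smaller after ADX than after sham surgery in WT, by -1.69. Its ADX effect at ZT12 was more positive in RE-RE than in WT, by 1.14. The time effect of Errfi1 was larger with dexamethasone than in ADX, by 1.40, and that of Spry1 by 0.87. Spry1 also had a larger time effect with dexamethasone than with adrenaline, by 0.55, where Spry2 had an opposite difference of -0.53. Spry2 had a larger time effect with adrenaline than in ADX, by 0.42, and a smaller ADX effect at ZT12 in RE-RE than in WT, by -0.39.

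In 77 sets of 1 gene in 1 group of 4 libraries, 5 held a library far from the others; chance gives such a gap in about 1 in 20 sets. Dusp1 was at 94 FPKM in ADX+ADR replicate 7 at ZT12, the others being at 66.0 to 70.6. Errfi1 was at 7.33 in RE-RE ADX replicate 7 at ZT12 (others 8.98 to 9.14). Spry1 was at 16.3 in WT sham replicate 6 at ZT12 (others 12.5 to 12.7). In ADX+ADR at ZT12, Spred1 was at 2.16 in replicate 5 (others 1.39 to 1.48) and Sgk1 at 60.3 in replicate 6 (others 48.0 to 49.7).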

How the results depend on the processing

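Of 196 results for 1 gene in 1 comparison, 76 were called, 52 of them also when any 1 library was left out and 38 in every fit; no called value changed sign. Counts of the 7 genes called that moved by more than 1.5 times are given here; other counts moved by less. When the model held only the 2 or 4 groups compared, the time difference called 0 in WT ADX (main 2) and 0 in RE-RE ADX (main 1). ADX in RE-RE at ZT0 then called 0 (main 1), RE-RE against WT at ZT12 1 in sham (main 2) and 2 in ADX (main 4), dexamethasone against adrenaline time effects 1 (main 2), and the genotype difference of ADX effects 1 at ZT0 (main 0) and 0 at ZT12 (main 2). Without the libraries that stand apart the counts were 2 for time with adrenaline (main 4), 0 for time in RE-RE ADX, 1 and 2 for RE-RE against WT at ZT12 in sham and ADX, 0 for the time effect of adrenaline against ADX (main 1) and 0 for the genotype difference of ADX effects at ZT12. Time in RE-RE ADX also called 0 with no filter, equal medians or age. With age, ADX against sham at ZT0 called 1 (main 2) and the time effect of adrenaline against ADX 0. With 1 FPKM added, RE-RE against WT sham at ZT12 called 4, and the genotype difference of ADX effects at ZT0 called 1 with 1 or 0.1 FPKM added. With only the groups compared 18 results lost their call and 5 gained it. Among the lost were Spry2 for time in WT sham (-0.35, adjusted p 0.056) and ADX against sham at ZT12 (0.34, 0.058), Spry1 (0.48, 0.11) and Spred1 (-0.37, 0.17) for time with adrenaline, Spred1 for time in WT ADX (-0.37, 0.091), and Dusp7 for ADX in RE-RE at ZT0 (0.98, 0.080) and the genotype difference at ZT12 (1.14, 0.075). Gained at ZT0 were Errfi1 (0.49, 0.021) and Spry2 (-0.20, 0.027) for RE-RE ADX against WT ADX and Dusp7 for the genotype difference (0.80, 0.047).

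Leaving out each library gave 0 to 2 (time in WT ADX), 2 to 4 (time with adrenaline), 0 to 1 (time in RE-RE ADX), 1 to 2 (ADX against sham at ZT0; RE-RE against WT sham at ZT0), 1 to 3 (RE-RE against WT sham at ZT12; time effect of dexamethasone against adrenaline), 2 to 5 (RE-RE ADX against WT ADX at ZT12), 0 to 1 (time effects of adrenaline against ADX, of RE-RE ADX against sham and of RE-RE against WT sham; genotype difference at ZT0) and 0 to 2 (genotype difference at ZT12).

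Deviations from the group means in same-numbered libraries correlated at r -0.19 to 0.22 (48 pairs, 8 over 0.1). With so few libraries per group, these values cannot decide whether the numbers pair the libraries. With the number as a replicate block and only the groups compared, 28 of 154 results lost their call and 1 gained it (Dusp1, dexamethasone against adrenaline at ZT12, adjusted p 0.011). Among the lost was Spred1 for ADX against sham at ZT0 (0.57, adjusted p 0.090) and ZT12 (0.38, 0.10). Spred1 for adrenaline against ADX at ZT12 (-0.74, 0.084) and Sgk1 for ADX against sham at ZT12 (-0.90, 0.075) were lost too. The block counts were 0 for ADX against sham at ZT0 and for RE-RE at ZT0, 1 for RE-RE ADX against WT ADX at ZT0 (main 3) and at ZT12, and 1 for ADX against sham at ZT12 (main 4). They were 3 for adrenaline (main 7) and 3 for dexamethasone (main 5) against ADX at ZT12, 0 for RE-RE against WT sham at ZT12, 0 for the time effects of adrenaline and of dexamethasone (main 2) against ADX, 1 for dexamethasone against adrenaline, and 0 for the genotype difference at ZT12.

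Counts over all genes fell by more than 1.5 times in some fits, for example from 2818 to 1295 for time in WT sham without the libraries that stand apart, from 3838 to 7 for ADX against sham at ZT0 under the block, and from 93 to 0 for time in RE-RE ADX. Apart from fewer libraries or genes in a fit, the cause was not tested. Depth did not limit the 7 genes, while zeros did for Dusp1.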
